A study of Homo sapiens with 9 samples.

Results

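The MHC class I and peptide loading genes studied here are 9 genes taken by symbol from the 16366 genes of the deposited table. They are the heavy chain genes HLA-B, HLA-C, HLA-E and HLA-F, the light chain gene B2M, the peptide transporter genes TAP1 and TAP2, the loading chaperone gene TAPBP and the transactivator gene NLRC5. All 9 had enough counts to be tested, among 12470 tested genes. RNA was sequenced from Cal-27, a human line of tongue squamous carcinoma cells labelled wild type and kept in serum-supplemented, high-glucose DMEM. The first group received exosomes from cancer-associated fibroblasts (CAF exosomes) during 48 h of co-culture, and the second, over the same 48 h, exosomes labelled hOMF, an abbreviation left unexplained in the labels and spelled there in more than 1 way. The third was a control group, labelled NC and also listed at 48 h. The labels do not describe it further, so they do not say whether it received a vesicle-free preparation. Each group held 3 libraries called replicate samples, but nothing states that they came from separate cultures. P-values here therefore reflect the spread among these libraries alone, which may be technical. All 9 libraries come from 1 cell line.

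Class I molecules carry short peptides from inside the cell to its surface, where CD8 T cells read them and natural killer cells check for their presence. A heavy chain pairs with beta-2-microglobulin in the endoplasmic reticulum. The transporter formed by TAP1 and TAP2 moves peptides from the cytosol into that compartment, and tapasin, the product of TAPBP, holds the empty heavy chain beside the transporter while a peptide is chosen. NLRC5, a relative of the class II transactivator CIITA, works with RFX, CREB and NF-Y factors at a promoter module of class I genes, and upstream elements bind NF-kB and interferon regulatory factors. Loss of these genes is a known route by which carcinomas escape T cells.

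The promoter windows of the called members are shown with matches to motifs of the regulators named above. A link between a motif and a change in level was not tested. Windows from 250 bases before to 50 after the start (RefSeq, GRCh38.p14) were matched for 7 of the 9 members in the promoter table used here. These were HLA-B, HLA-C, HLA-F, B2M, TAP1, TAP2 and TAPBP. The 5 windows below, printed 5′ to 3′ on the gene's strand, are those of the matched members that were called in at least 1 comparison. HLA-E, also called, and NLRC5 had no match. They lie at chr6:31357130-31357429 (minus strand), chr6:29723184-29723483 (plus strand), chr6:32853655-32853954 (minus strand, the first of its listed starts), chr6:32838690-32838989 (minus strand) and chr6:33314029-33314328 (minus strand). Capitals mark matches on either strand to 4 motifs: the interferon regulatory factor core AANNGAAA, the NF-kB motif (GGG, any 2 bases, TT, any base, CC), the CRE core TGACG and the CCAAT box CCAAT. Where matches overlap or touch, as in TAP1, TAP2 and TAPBP, the capitals form 1 longer run.
HLA-B: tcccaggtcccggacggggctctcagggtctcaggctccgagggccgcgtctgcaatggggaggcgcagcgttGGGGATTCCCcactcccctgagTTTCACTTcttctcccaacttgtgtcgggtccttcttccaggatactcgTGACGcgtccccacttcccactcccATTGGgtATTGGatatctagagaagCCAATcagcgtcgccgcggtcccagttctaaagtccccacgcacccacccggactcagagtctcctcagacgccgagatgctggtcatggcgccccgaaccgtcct
HLA-F: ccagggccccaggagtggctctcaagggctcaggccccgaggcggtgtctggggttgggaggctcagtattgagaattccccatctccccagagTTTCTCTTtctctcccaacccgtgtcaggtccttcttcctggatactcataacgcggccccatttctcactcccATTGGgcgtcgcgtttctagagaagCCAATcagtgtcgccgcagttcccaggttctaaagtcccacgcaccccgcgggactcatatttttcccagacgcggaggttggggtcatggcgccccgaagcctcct
TAP1: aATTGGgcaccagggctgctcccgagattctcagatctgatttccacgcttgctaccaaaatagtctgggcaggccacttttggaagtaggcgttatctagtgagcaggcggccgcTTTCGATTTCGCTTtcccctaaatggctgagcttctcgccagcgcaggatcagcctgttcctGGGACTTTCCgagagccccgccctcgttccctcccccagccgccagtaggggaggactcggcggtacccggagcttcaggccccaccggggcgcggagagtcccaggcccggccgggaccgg
TAP2: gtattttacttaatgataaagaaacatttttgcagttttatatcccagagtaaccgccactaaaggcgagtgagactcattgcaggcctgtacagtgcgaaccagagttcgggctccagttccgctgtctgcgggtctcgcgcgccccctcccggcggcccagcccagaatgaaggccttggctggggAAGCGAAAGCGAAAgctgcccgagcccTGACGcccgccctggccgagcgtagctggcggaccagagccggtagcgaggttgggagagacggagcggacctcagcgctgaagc
TAPBP: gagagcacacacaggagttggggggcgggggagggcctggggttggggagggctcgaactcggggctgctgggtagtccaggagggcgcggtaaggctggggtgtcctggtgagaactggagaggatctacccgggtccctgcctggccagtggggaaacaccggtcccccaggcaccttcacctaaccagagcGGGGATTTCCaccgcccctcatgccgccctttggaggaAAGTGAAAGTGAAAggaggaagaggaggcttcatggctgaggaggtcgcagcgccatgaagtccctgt

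The interferon regulatory factor core was found in 7 of the 7 member windows, while 22.8% of the 35116 listed promoters hold it. Member windows were counted at the first listed start of each gene, whereas the 35116 include every listed start. The other listed start of TAP1 held no match to any of the motifs. In TAP2 the interferon regulatory factor core occurs as a tandem run, AAGCGAAAGCGAAA, which begins 62 bases before the start. In TAPBP it occurs as AAGTGAAAGTGAAA, beginning 18 bases before the start. In HLA-B the NF-kB match GGGGATTCCC, the core TTTCACTT, the CRE core and the CCAAT boxes follow one another from 177 to 56 bases before the start. The NF-kB motif was in 4 windows (5.68% of all promoters), those of HLA-B, B2M, TAP1 and TAPBP. The CRE core was in 4 (24.6%) and the CCAAT box in 5 (34.6%). These are matches of letters, not bound sites, and no binding was measured.

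Each library held between 11185672 and 12779101 expected counts, of which the 9 members took 0.541% to 0.677%. Squamous markers were abundant in every library, with all 9 listed genes detected and sums of 5962 to 6023 CPM (counts scaled to library size by TMM) with CAF exosomes, 5056 to 5668 with hOMF exosomes and 3990 to 5317 in control. On the first principal component, with 39.7% of the variance, the CAF exosome libraries lay between -10.88 and -8.38, the hOMF exosome libraries between -16.64 and -9.99 and the control libraries at 18.8, 21.3 and 29.84. Control replicate 3, the outermost, also held leukocyte transcripts. The leukocyte gene PTPRC, which encodes CD45, had 94 counts and CD4 had 148 counts there, against at most 1 and 0 in every other library. The 12 leukocyte markers in the table summed to 143 CPM in it and to 58.8 to 65.7 CPM in the other 8 libraries. Of the 5 leukocyte markers that could be tested, edgeR called 2 lower in each exosome group than in control, while DESeq2 and limma-voom called 0 with CAF exosomes and 1 with hOMF exosomes. CORO1A, called by edgeR in both, overlapped between groups. Of all tested genes edgeR called 8.64% lower with CAF exosomes and 11.4% lower with hOMF exosomes. Leukocytes also express class I genes, and the part of these transcripts in the values below was not tested. Counts of called members, and of some but not all gene lists below, are therefore given with and without this library.

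Levels of the members were compared per transcript length as the authors' TPM, a length-scaled share of transcripts. In control cells B2M averaged 1765 ± 130 TPM (SD, n = 3, as below), HLA-C 1624 ± 39.2 and HLA-B 1516 ± 73.1, and the ranges of these neighbours in the order overlapped. TAPBP followed at 239 ± 18.1 TPM and HLA-E at 206 ± 8.43, then HLA-F at 101 ± 0.944, TAP1 at 60.7 ± 1.55, TAP2 at 38.1 ± 3.66 and NLRC5 at 7.27 ± 0.398, with no overlap between neighbours from TAPBP down. The B2M level thus stood near those of the classical heavy chains HLA-B and HLA-C, and the transactivator was the least abundant member. With hOMF exosomes the order was the same except that HLA-C and HLA-B, at 1776 ± 61.6 and 1772 ± 41.9 TPM, were level, and with CAF exosomes they were likewise level at 1838 ± 117 and 1832 ± 66.4 TPM. As TPM, HLA-C did not overlap control in either exosome group (1755 to 1972 with CAF exosomes, 1725 to 1845 with hOMF exosomes and 1579 to 1647 in control), whereas its CPM did. TAP2 with hOMF exosomes, at 28.2 to 37.1 TPM, overlapped the 34.9 to 42.1 TPM of control, whereas its CPM did not. Together the 9 genes summed to 6251 to 6893 TPM with CAF exosomes, 6430 to 6552 with hOMF exosomes and 5354 to 5724 in control.

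CAF exosomes were first compared with the control, whose treatment the labels do not describe, so an action of the vesicles themselves is not isolated. HLA-B, HLA-E, HLA-F and TAPBP were higher, TAP2 was lower, and HLA-C, B2M, TAP1 and NLRC5 were not called. The changes were small, with folds of 1.16 to 1.30 for the members that rose and 0.84 for TAP2. Calls were made at an adjusted p under 0.05 with edgeR's quasi-likelihood test, fitted to the 9 libraries together. Of all tested genes 9.51% were called higher and 8.64% lower, and the members' counts were 4 and 1 of 9. The median log2 change of the members was 0.21, that of all tested genes -0.005. Without control replicate 3 the count of members called higher was 1 (HLA-F), without control replicate 2 or CAF exosome replicate 1 it was 2, and the lower call was lost without any single CAF exosome library or control replicate 2 or 3. Calls over all genes fell as well. With all 9 libraries 1186 of 12470 genes were higher, and without control replicate 3 742 of 12549. The count was 756 without control replicate 2 and 879 without CAF exosome replicate 1. The split of all calls, 52.4% higher, was 63.1% with libraries scaled by their totals, 62.4% with upper quartile factors and 64.0% using limma on log2(FPKM + 1). It was 43.1% after the GC and length correction, which leaves more lower than higher calls.

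**Figure D1:**
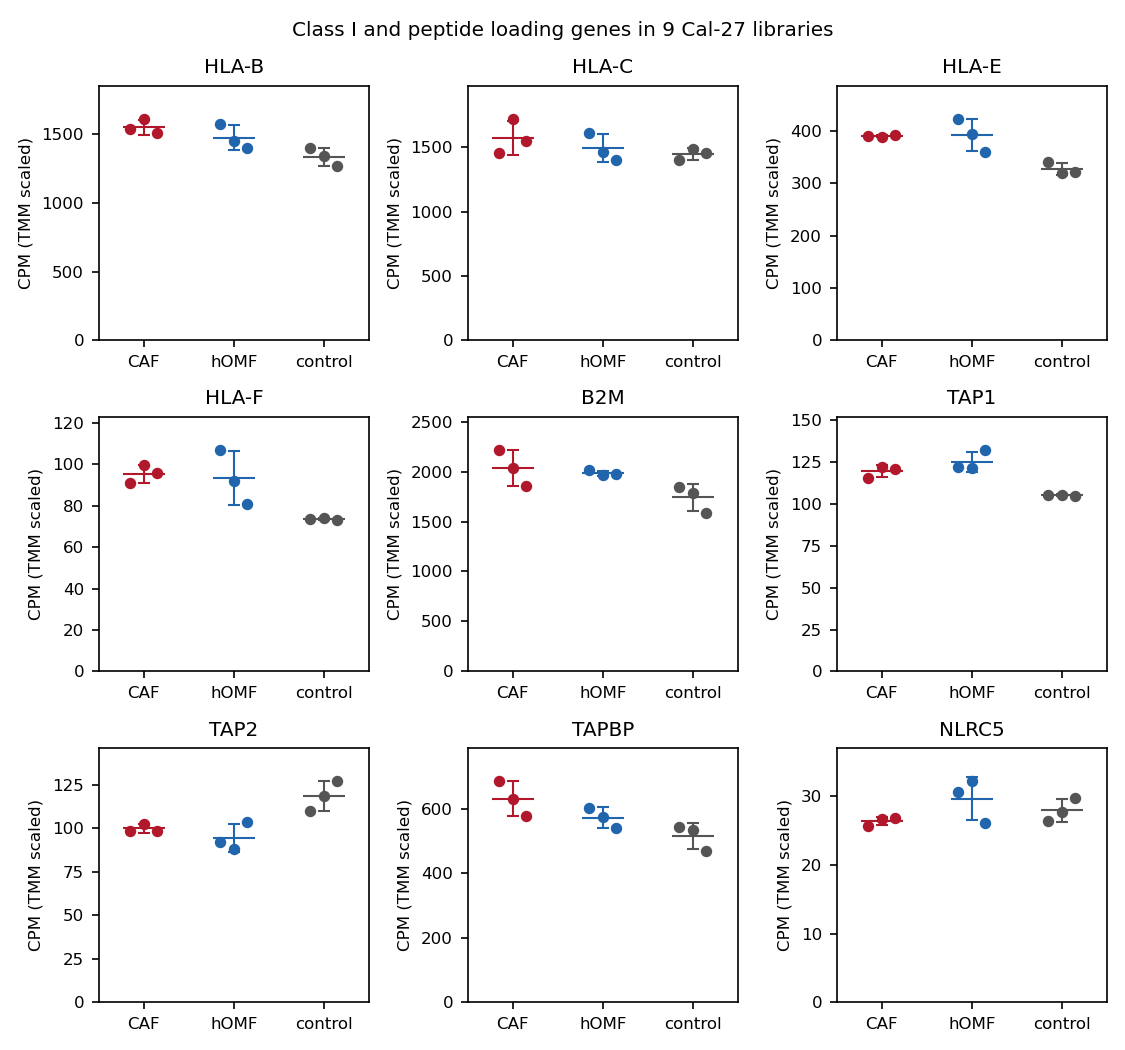
TMM-scaled CPM (y axes, from 0) of the 9 genes in the 3 libraries of each group: CAF exosomes, hOMF exosomes and control. Points are libraries in replicate order, the wide bar is the mean and the whiskers are 1 SD. HLA-E and HLA-F lie above all control libraries in both exosome groups, TAP2 lies below them, and NLRC5 overlaps.

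HLA-F encodes a non-classical heavy chain that natural killer cell receptors can bind. Its level was 91.0, 99.5 and 95.9 CPM with CAF exosomes, against 73.7, 74.0 and 73.3 CPM in control. Every CAF exosome library was above every control library, and the control libraries were within 1 CPM of each other. The log2 change was 0.37 (SE 0.09, 95% interval 0.19 to 0.56, adjusted p = 0.00905), and the call held under all 23 alternatives tried. HLA-E presents leader peptides of other class I chains to the NKG2A receptor of natural killer cells. It was at 391, 389 and 392 CPM with CAF exosomes, against 341, 320 and 322 CPM in control. The groups did not overlap. The change was 0.26 (SE 0.07, interval 0.11 to 0.41, adjusted p = 0.0212), a call lost when CAF exosome replicate 3, control replicate 2 or control replicate 3 was left out.

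HLA-B, a classical and highly polymorphic heavy chain, stood at 1535, 1609 and 1505 CPM with CAF exosomes, against 1399, 1343 and 1268 CPM in control. The groups did not overlap, but the change of 0.21 (SE 0.07, interval 0.06 to 0.36) was near the threshold at an adjusted p = 0.0461. It did not hold in 9 of 23 alternatives, including a GC and length correction and leaving out any CAF exosome library, hOMF exosome replicate 2 or control replicate 2 or 3. HLA-C, the other classical heavy chain here, was at 1454, 1718 and 1548 CPM with CAF exosomes, against 1400, 1486 and 1456 CPM in control. These ranges overlapped, and the change was 0.12 (SE 0.08, interval -0.04 to 0.28, adjusted p = 0.296). Expected counts of HLA-B, HLA-C and HLA-E were not whole in any of the 9 libraries, so part of each was assigned from reads shared with similar genes and its split between them is uncertain. Their alleles in Cal-27 may also differ from the sequences used for counting. The summed CPM of HLA-B, HLA-C, HLA-E and HLA-F, which do not depend on how reads were split among these 4, were 3471, 3816 and 3541 with CAF exosomes, against 3213, 3222 and 3120 in control.

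B2M, the shared light chain, had 2214, 2031 and 1860 CPM with CAF exosomes, against 1847, 1788 and 1589 CPM in control. Every CAF exosome library was above the control libraries, although CAF exosome replicate 3 and control replicate 1 were close. The change of 0.23 (SE 0.08, interval 0.06 to 0.39) did not pass the threshold (adjusted p = 0.0566), and it passed under 9 of 23 alternatives. TAPBP was at 685, 631 and 577 CPM with CAF exosomes, against 544, 533 and 468 CPM in control. It rose by 0.29 (SE 0.08, interval 0.12 to 0.46, adjusted p = 0.0213). The groups did not overlap, and the call was lost without CAF exosome replicate 1 or control replicate 3.

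The subunits of the peptide transporter differed in direction, and 1 of them was called. TAP1 stood at 116, 122 and 121 CPM with CAF exosomes, against 106, 106 and 105 CPM in control. The groups did not overlap, yet the change of 0.18 (SE 0.07, interval 0.04 to 0.32) was not called (adjusted p = 0.0646) and passed the threshold under 7 of 23 alternatives. TAP2 was at 98.3, 103 and 98.6 CPM with CAF exosomes, against 110, 118 and 127 CPM in control. It fell by 0.25 on the log2 scale (SE 0.08, interval -0.41 to -0.08, adjusted p = 0.0366), with every CAF exosome library below every control library. The threshold was missed in 8 of 23 alternatives, including scaling by library totals, upper quartile factors and no filter on low counts. In GENCODE release 29, 32.3% of the exonic bases of TAP2 also belong to AL669918.1, a gene annotated on the same strand. The expected counts of TAP2 were whole in all 9 libraries, and whether AL669918.1 was among the genes counted is not stated. NLRC5 was at 25.7, 26.7 and 26.8 CPM with CAF exosomes, against 26.4, 27.6 and 29.7 CPM in control. The ranges overlapped, and the change was -0.08 (SE 0.09, interval -0.28 to 0.11, adjusted p = 0.573).

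Across the 9 genes, 6 had every CAF exosome library above every control library, and 1, TAP2, had every one below. Of all tested genes, 18.0% were separated upward and 18.2% downward in this comparison.

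For hOMF exosomes the control was again the same 3 libraries, so both comparisons share them. HLA-E, HLA-F and TAP1 were higher and TAP2 was lower, while HLA-B, HLA-C, B2M, TAPBP and NLRC5 were not called. Folds were 1.19 to 1.26 for the members that rose and 0.80 for TAP2. Of all tested genes 11.8% were called higher and 11.4% lower by edgeR, against 3 and 1 of the 9 members. The median log2 change was 0.15 over the members and 0.003 over all tested genes. Without control replicate 3 the counts were again 3 and 1. Without hOMF exosome replicate 1 only TAP1 was called higher, and without hOMF exosome replicate 2 the call of TAP2 was lost. Over all genes 1475 of 12470 were called higher with all 9 libraries. The count was 997 of 12549 without control replicate 3 and 1042 of 12561 without hOMF exosome replicate 1. The split of all calls, 50.9% higher, was 67.0% with libraries scaled by their totals, 61.7% with upper quartile factors and 68.7% using limma on log2(FPKM + 1). It was 42.0% after the GC and length correction, again with more lower than higher calls.

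TAP1 was at 122, 121 and 132 CPM with hOMF exosomes, with the control values above. It rose by 0.25 (SE 0.07, interval 0.11 to 0.39, adjusted p = 0.0129), and the call held under all 23 alternatives. The groups did not overlap, and hOMF exosome replicate 3 was the highest of the 9 libraries. TAP2 was at 92.2, 88.0 and 103 CPM with hOMF exosomes and fell by 0.33 (SE 0.08, interval -0.49 to -0.16, adjusted p = 0.00737). Again hOMF exosome replicate 3 was the highest of its group, but it stayed below the control libraries. The call was lost with limma on log2(FPKM + 1) or log2(FPKM + 0.1).

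HLA-F was at 107, 92.0 and 80.9 CPM with hOMF exosomes and rose by 0.34 (SE 0.09, interval 0.15 to 0.53, adjusted p = 0.0121). HLA-E was at 422, 394 and 360 CPM and rose by 0.26 (SE 0.07, interval 0.11 to 0.41, adjusted p = 0.0149). In both genes hOMF exosome replicate 1 was the highest and replicate 3 the lowest, and all 3 were above control. The HLA-E call was lost without hOMF exosome replicate 1 or 2 or control replicate 2, and the HLA-F call without hOMF exosome replicate 1.

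The classical heavy chains overlapped with control. HLA-B was at 1575, 1451 and 1398 CPM with hOMF exosomes (log2 change 0.14, SE 0.07, interval -0.01 to 0.29, adjusted p = 0.157). HLA-C was at 1614, 1467 and 1402 CPM (0.05, SE 0.08, interval -0.12 to 0.21, adjusted p = 0.708). B2M was at 2011, 1961 and 1974 CPM, all above control, with a change of 0.19 (SE 0.08, interval 0.02 to 0.35) that was not called (adjusted p = 0.0952). TAPBP was at 603, 573 and 539 CPM, which overlapped control (0.15, SE 0.08, interval -0.02 to 0.32, adjusted p = 0.192). Its expected counts were whole in the CAF exosome and control libraries and not whole in all 3 hOMF exosome libraries. NLRC5 was at 30.6, 32.2 and 26.1 CPM, again overlapping (0.08, SE 0.09, interval -0.11 to 0.28, adjusted p = 0.552). With hOMF exosomes 4 members had every library above control and 1 had every library below, and the shares over all tested genes were 20.2% and 19.3%.

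**Figure D2:**
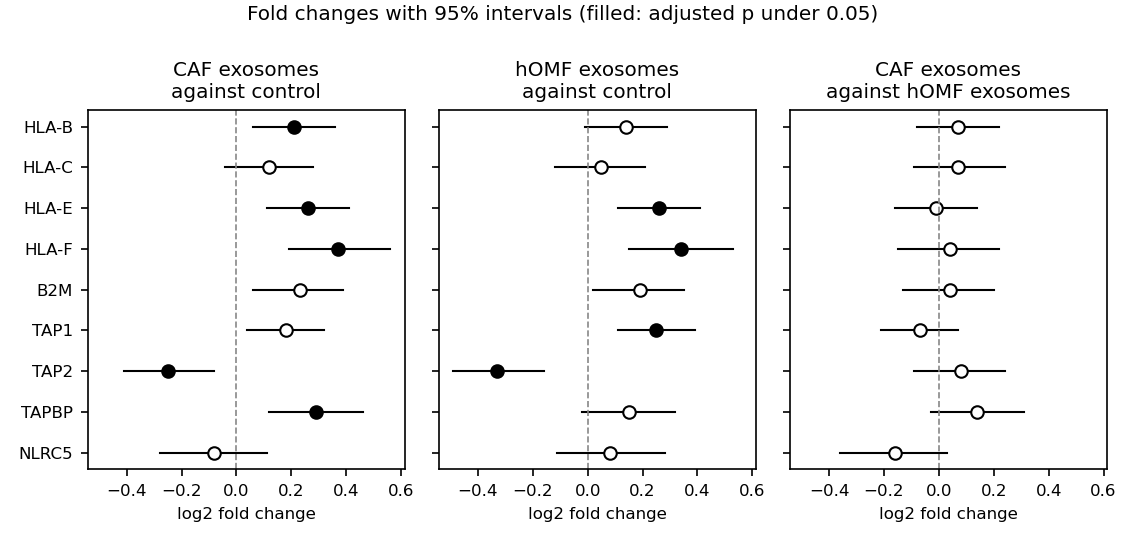
Log2 fold changes (x axes) of the 9 genes (rows) in the 3 comparisons, with 95% intervals from edgeR. Filled points have an adjusted p under 0.05. TAP2 is the called gene to the left of 0 in both comparisons with control, and the intervals of CAF against hOMF exosomes all include 0.

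CAF exosomes were then compared with hOMF exosomes, which tests whether levels differ between the groups given these vesicles. No member was called by edgeR, 0 of the 9 had an unadjusted p under 0.05, and DESeq2 and limma-voom called 0. Of the 12470 tested genes, 947 had an unadjusted p under 0.05 in this comparison. Among 9 genes a count of 0 therefore does not set the members apart. Over all tested genes 0.0160% were called, 0.00802% higher and 0.00802% lower. The libraries of every member overlapped, while 7.15% of all tested genes were separated upward and 6.59% downward. The 95% intervals of the 9 differences ran from -0.36 at the lowest to 0.31 at the highest. Those ends belong to NLRC5, at -0.16 (interval -0.36 to 0.03, adjusted p = 0.728), and to TAPBP, at 0.14 (interval -0.03 to 0.31, adjusted p = 0.734). For HLA-E the interval was -0.16 to 0.14, for TAP1 -0.21 to 0.07 and for TAP2 -0.09 to 0.24. The calls of HLA-B and TAPBP with CAF exosomes alone and of TAP1 with hOMF exosomes alone are therefore not shown to differ between the vesicles. For HLA-B the difference was 0.07 (interval -0.08 to 0.22, adjusted p = 0.876) and for TAP1 -0.07 (adjusted p = 0.878).

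Because TAP1 and TAP2 form 1 transporter, their ratio within a library was formed after their values were seen, as a description that does not depend on how libraries are scaled to each other. The ratio of TPM was 2.32, 2.5 and 2.45 with CAF exosomes, 2.45, 2.64 and 2.26 with hOMF exosomes, and 1.76, 1.58 and 1.46 in control. As TPM, both exosome groups were above all control libraries, and they overlapped each other. The ratio of expected counts, which is free of the length estimates but not comparable between genes, was 1.18, 1.19 and 1.23 with CAF exosomes, 1.33, 1.38 and 1.28 with hOMF exosomes, and 0.959, 0.892 and 0.825 in control. As counts, both exosome groups were again above control, but every CAF exosome library was below every hOMF exosome library. This difference was not tested. The lowest control ratio was in replicate 3 on both scales. The ratio of B2M to the summed TPM of HLA-B, HLA-C, HLA-E and HLA-F was 0.600, 0.498 and 0.493 with CAF exosomes, 0.508, 0.541 and 0.572 with hOMF exosomes, and 0.538, 0.519 and 0.477 in control, and these ranges overlapped.

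**Figure D3:**
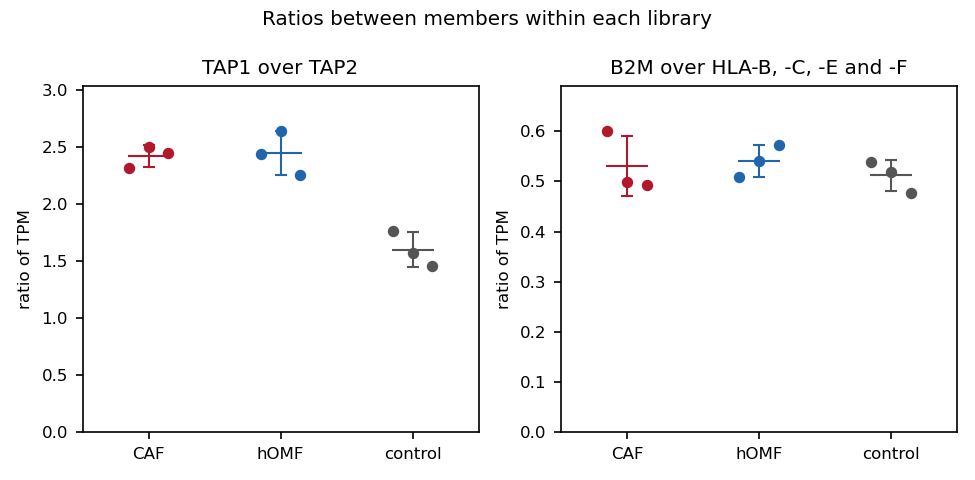
Ratio of TPM (y axes, from 0) of TAP1 to TAP2 (left) and of B2M to the sum of HLA-B, HLA-C, HLA-E and HLA-F (right) in each library, with the group mean and 1 SD. The TAP1 to TAP2 ratio lies between 2.26 and 2.64 in the exosome groups and between 1.46 and 1.76 in control.

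Genes that act beside the members were counted in the same fit, from 8 lists with no set test. Over all tested genes, edgeR called 9.51% higher and 8.64% lower with CAF exosomes, and 11.8% and 11.4% with hOMF exosomes. Each list count is to be read beside these shares. Of 11 genes that trim or supply peptides, 1 was higher and 2 were lower with CAF exosomes, and 3 and 2 with hOMF exosomes, with medians of -0.01 and -0.04. NRDC, a peptidase of the cytosol, rose by 0.31 (SE 0.08) with CAF exosomes and by 0.43 (SE 0.08) with hOMF exosomes. THOP1, which degrades cytosolic peptides, fell by 0.37 (SE 0.10) and 0.45 (SE 0.10), and PSME3, a proteasome activator subunit, fell by 0.34 (SE 0.07) and 0.45 (SE 0.07). The immunoproteasome genes PSMB8 and PSMB9, which lie beside TAP1 and TAP2 and are named after their values were seen, rose with hOMF exosomes by 0.23 (SE 0.08) and 0.24 (SE 0.08). Both were near the threshold in edgeR's quasi-likelihood test (adjusted p = 0.0435 and 0.0427), and DESeq2 called 1 rather than 3 genes of this list higher with hOMF exosomes. With CAF exosomes they were not called, at 0.04 (SE 0.08) and 0.14 (SE 0.08). Without control replicate 3 the counts were 1 and 1 with CAF exosomes and 1 and 2 with hOMF exosomes.

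None of 10 chaperones and editors of the endoplasmic reticulum, such as CALR and PDIA3 of the loading complex, was called by edgeR, DESeq2 or limma-voom in either comparison with control. The counts at an unadjusted p under 0.05 were 0 with CAF exosomes and 1, downward, with hOMF exosomes. The medians were 0.10 and -0.04. Between CAF and hOMF exosomes the 3 tools also called 0, and the median was 0.16. At an unadjusted p under 0.05 in edgeR's test, 5 were higher with CAF exosomes and 0 lower. Of all 12470 tested genes, 947 had such a p in either direction. 

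Of 7 tested class I-like heavy chains, 5 were higher with CAF exosomes and 3 with hOMF exosomes, and 0 were lower, with medians of 0.30 and 0.12. At an unadjusted p under 0.05, 1 was lower in each. Of all tested genes 9.51% were called higher with CAF exosomes and 11.8% with hOMF exosomes. MR1, which presents vitamin B metabolites to mucosal-associated T cells, rose by 0.37 (SE 0.08) with CAF exosomes and 0.42 (SE 0.08) with hOMF exosomes. FCGRT, the neonatal Fc receptor, which pairs with B2M, rose by 0.55 (SE 0.12) in both. HFE, the iron regulator that also pairs with B2M, rose by 0.35 (SE 0.08) and 0.42 (SE 0.08). Without control replicate 3 the counts called higher were 3 and 3. HLA-G, a non-classical heavy chain of the placenta, was too low to test, at 0.233 ± 0.189 CPM with CAF exosomes, 0.424 ± 0.241 with hOMF exosomes and 0.538 ± 0.230 in control. Counts of HFE were not whole in 7 libraries and those of MR1 in 3, so part of their reads was shared.

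Of 12 class I promoter factors other than NLRC5, 1 was higher and 1 lower with CAF exosomes, and 1 and 2 with hOMF exosomes, with medians of -0.10 and -0.06. The all-gene shares were 9.51% higher and 8.64% lower with CAF exosomes, and 11.8% and 11.4% with hOMF exosomes. RFXAP, a subunit of the RFX complex that binds the X box, rose by 0.60 (SE 0.15) and 0.65 (SE 0.15), at low levels of 10.3 ± 1.12 CPM with CAF exosomes, 10.7 ± 1.11 with hOMF exosomes and 6.79 ± 1.17 in control. NFKB1, the p50 subunit of NF-kB, fell by 0.34 (SE 0.11) and 0.47 (SE 0.11). RELA, named after its values were seen, fell by 0.21 (SE 0.07) with hOMF exosomes and was at -0.16 (SE 0.07), not called, with CAF exosomes. Without control replicate 3 the lower call with CAF exosomes was lost. Of the PRC2 core genes, which are known to repress class I genes in several cancers, EZH2 fell by 0.35 (SE 0.10) with hOMF exosomes, a call lost without control replicate 3. None of the 3 was called with CAF exosomes by edgeR, DESeq2 or limma-voom, and 1 was lower at an unadjusted p under 0.05.

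Of 15 interferon receptor and signalling genes, 2 were higher and 0 lower in each comparison, with medians of 0.01 and -0.02, and none was called in either once control replicate 3 was left out. These counts of 2 stand beside the 9.51% and 11.8% of all tested genes called higher. With CAF exosomes the called genes were IFNGR1, a chain of the interferon gamma receptor, at 0.23 (SE 0.08), and STAT2, a transducer of type I interferon signals, at 0.26 (SE 0.09). With hOMF exosomes STAT2 rose by 0.31 (SE 0.09). IRF1, an interferon-induced factor that acts at class I promoters and is named after its values were seen, was not called, at -0.11 (SE 0.07) with CAF exosomes and -0.14 (SE 0.07) with hOMF exosomes. Its counts were not whole in any of the 9 libraries. Of 25 interferon-stimulated genes, 3 were higher and 0 lower with CAF exosomes and 5 and 1 with hOMF exosomes, with medians of 0.06 and 0.03. The shares called higher among all tested genes were 9.51% and 11.8%, and DESeq2 called 3 higher and 2 lower with hOMF exosomes. IFITM1, a membrane protein that restricts virus entry, rose by 0.50 (SE 0.09) and 0.31 (SE 0.09). IFITM3 rose by 0.39 (SE 0.08) with CAF exosomes and was at 0.07 (SE 0.08) with hOMF exosomes, with non-whole counts in 8 of 9 libraries. IFI44 rose by 0.48 (SE 0.12) and 0.65 (SE 0.12). Without control replicate 3 the interferon-stimulated counts were 2 and 0 with CAF exosomes and 3 and 2 with hOMF exosomes.

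Class II presentation genes were counted in the same fit, and a link between them and the members was not tested. CIITA rose by 0.70 (SE 0.12) with CAF exosomes and 0.62 (SE 0.12) with hOMF exosomes, while its relative NLRC5 was not called in either. Of 12 tested class II genes 8 and 6 were higher and 0 lower, with medians of 0.39 in both, and the counts without control replicate 3 were 7 and 7. With all 9 libraries, 9.51% and 11.8% of all tested genes were called higher.

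**Figure D4:**
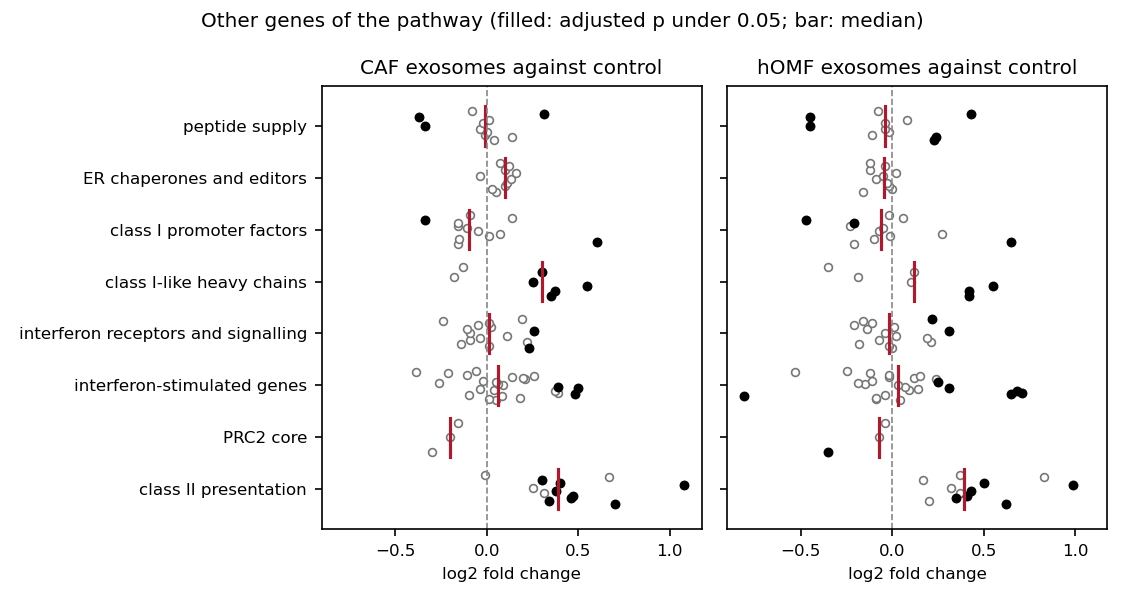
Log2 fold changes (x axes) of the tested genes of 8 lists (rows) with CAF exosomes (left) and hOMF exosomes (right) against the same control libraries. Filled points have an adjusted p under 0.05 and the vertical bar is the median, which is 0.39 for class II presentation in both panels and within 0.10 of 0 for peptide supply and interferon signalling.

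Fibroblast markers were counted because CAFs express them. Of the 16 that the table lists, 10 could be tested, and 5 were higher in each exosome group. Over all tested genes 9.51% were called higher and 8.64% lower with CAF exosomes, and 11.8% and 11.4% with hOMF exosomes. The list summed to 1036 to 1127 CPM with CAF exosomes, 982 to 1076 with hOMF exosomes and 733 to 948 in control. SPARC, a matrix protein gene that averaged 634 CPM over all libraries, made up most of it. The genes called higher in both were SPARC, COL6A1, COL6A2, LUM and ACTA2. LUM, a matrix proteoglycan gene, averaged 3.03 ± 0.156 CPM with CAF exosomes, 2.78 ± 0.475 with hOMF exosomes and 1.45 ± 0.233 in control. COL6A1, a collagen VI chain, averaged 55.6 ± 4.06 CPM with CAF exosomes, 53.8 ± 6.53 with hOMF exosomes and 35.7 ± 4.96 in control. Of the other markers, COL3A1, FAP, THY1 and POSTN had at most 1 count in any library, and DCN at most 2. DESeq2 called 3 of the list higher with CAF exosomes and 5 with hOMF exosomes. Of 3 tested endothelial markers 1 was lower in each exosome group, and of 9 squamous markers 4 were higher with CAF exosomes and 2 with hOMF exosomes. The part of these lists in the class I values was not tested. In bulk RNA a change in the share of cells of a kind and a change in RNA per cell cannot be told apart.

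The genes whose log2 CPM followed the mean standardised level of the 9 members most closely over the 9 libraries were TMEM120B (Pearson r = 0.987), FAM98C and DNASE2 (both 0.980), followed by NPIPB4, TTC12, CCNL2, SYT8, TRPM4 and RHBDF1, at 0.973 to 0.978. They were taken from 11329 genes with a mean of at least 1 FPKM, and NPIPB4 belongs to a family of near-identical copies. The mean standardised level itself was 0.32, 0.71 and 0.18 with CAF exosomes, 0.75, 0.22 and -0.18 with hOMF exosomes and -0.62, -0.57 and -0.80 in control. NLRC5 was followed most closely by STX10 (0.940), OXSM (0.920), PPP1R37 (0.906) and CCDC106 (0.896). All 9 members enter the mean with the same sign, although TAP2 correlated at -0.92 to -0.26 with the others. NLRC5 correlated with the others at -0.28 to 0.20, so the mean is not a level that all members share. The points share libraries, depth and the difference between groups, so these values describe likeness only.

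Outside B2M, on chromosome 15 (44711487 to 44718877, plus strand), and NLRC5, on chromosome 16 (56989485 to 57083531, plus strand), the members lie on chromosome 6 in GRCh38 with GENCODE release 29. TAP2 (32821833 to 32838780) and TAP1 (32845209 to 32853978) are neighbours on the minus strand, and TAPBP lies at 33299694 to 33314387 on the same strand. HLA-F lies at 29722775 to 29738528 and HLA-E at 30489467 to 30494205 on the plus strand, and HLA-C at 31268749 to 31272130 and HLA-B at 31269491 to 31357188 on the minus strand, where their annotated spans overlap and share 35 exonic bases. On the opposite strand, exons of the pseudogene AL671883.2 overlap 17.8% of the exonic bases of HLA-B, those of the pseudogene AL645939.1 16.1% and of HLA-F-AS1 12.3% of HLA-F, and those of PSMB8-AS1 9.49% of TAP1. The libraries marked strand, but the labels and headers do not say whether counting used it. Counts of HLA-F and TAP1 were whole in all 9 libraries.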

How the data were processed

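Poly(A) RNA of 9 Cal-27 libraries (3 per group) was read as pairs of 150 nucleotides from 5 µg of total RNA with strand marked by dUTP, per the labels' protocols. The authors deposited expected counts, FPKM and TPM per gene, per the file headers, made with RSEM 1.2.8 and Bowtie2 2.2.5, per the submitters' processing notes. Those notes name a mouse build although identifiers and symbols are human, so the build is uncertain. No label or header names the annotation or says whether counting used strand. RSEM divides reads between similar genes, which bears on the HLA genes. The authors' group means were not used.

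Expected counts (90.5% to 92.0% whole within 0.001) were rounded, filtered with filterByExpr (minimum count 10, minimum total 15) and scaled by TMM. edgeR's quasi-likelihood test held all 9 libraries with group as the only term (6 residual degrees of freedom). P-values are two-sided with Benjamini-Hochberg adjustment over 12470 genes, threshold 0.05, and SE came from the fold change and the F statistic. The fits used edgeR 4.0.16, with DESeq2 1.42.0 and limma 3.58.1 as alternatives, under R 4.3.3. Figures were drawn with matplotlib 3.10.9 under python 3.11.15. The test was tested on simulated data. Replicates differed by more than sampling noise (chi-square per degree of freedom 3.14 to 11.4) and were each counted. Alternatives were other scalings, filters and tools, FPKM with limma, a replicate block, a GC and length correction (99.1% of tested genes had values) and each library left out.

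The members and lists were chosen with earlier results of these data known. The members were named whatever their values, up to 3 called genes of each list with the smallest p with CAF exosomes and CIITA were named, and likeness was ranked by Pearson r over libraries. Some genes that these rules would name are not reported here.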

Additional observations from a re-analysis of the deposited data

How the results depend on the processing

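Of 621 values of single members over 23 alternatives, 561 kept direction and side of the threshold, 29 lost and 20 gained a call, and 11 reversed, all in uncalled results. The reversed log2 values were 0.02 and 0.03 for NLRC5 with CAF exosomes against control (limma on FPKM + 1 and + 0.1), 0 and -0.01 for HLA-C with hOMF exosomes against control (GC correction, without hOMF exosome replicate 1), and, for CAF against hOMF exosomes, 0 and 0.05 for HLA-E (no filter, without hOMF exosome replicate 1), -0.04, -0.04 and -0.02 for TAP2 (both FPKM settings, quantile scaling), -0.03 for B2M (without CAF exosome replicate 1) and -0.06 for HLA-F (without hOMF exosome replicate 3). The count of lower members with CAF exosomes was 0 with total scaling, upper quartile factors or no filter. With hOMF exosomes higher members numbered 5 with total scaling and lower members 0 with both FPKM settings. Genes called between CAF and hOMF exosomes (2) numbered 0 with total scaling, limma-voom, both FPKM settings, quantile scaling and a fit of those groups alone, 36 with DESeq2, 18 with the GC correction and 26 with GC correction and replicate block. Leaving out each library gave 1 to 5 higher and 0 to 1 lower members and 1343 to 2389 genes with CAF exosomes, 1 to 3, 0 to 1 and 1695 to 3096 with hOMF exosomes, and 0 members and 0 to 8 genes between them, where HLA-E lay at -0.07 to 0.05, B2M at -0.03 to 0.11 and HLA-F at -0.06 to 0.14, and HLA-C with hOMF exosomes against control at -0.01 to 0.10. The cause was not tested. With the replicate block, 2101 genes were called with CAF exosomes, 2718 with hOMF exosomes and 2 between them, and members 4 higher and 1 lower, and 3 higher and 1 lower. With CAF exosomes HLA-B then missed the threshold (edgeR adjusted p = 0.0501) and B2M passed it (0.0480). Deviations from the group means correlated at -0.15 to 0.14 between same-numbered libraries. Such values cannot decide whether these libraries were handled together, and the labels do not say. List counts without control replicate 3 were chosen after seeing the data. The number of libraries, 3 a group, limits the precision to the printed intervals.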

Other observations

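The ratio of HLA-B to HLA-C TPM, formed after values were seen and without a test, was 1.07, 0.946 and 0.982 with CAF exosomes, 0.986, 1.0 and 1.01 with hOMF exosomes, and 1.01, 0.913 and 0.880 in control. The groups overlapped, and both genes have counts assigned from shared reads.

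Control replicate 3 also had 746 counts of the leukocyte actin-bundling gene LCP1 and 215 of CORO1A, against 176 to 249 and 25 to 51 in the other 8 libraries. TYROBP, an adaptor of myeloid and natural killer cell receptors, had 18 counts there and 0 in the other 8.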
